A study of Spodoptera frugiperda with 3 samples.

Results

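Among the genes that the Verson's glands of the fall armyworm, Spodoptera frugiperda, expressed at like levels in the last larval instar (L6) and the prepupa, 86 genes were at least 5 times lower in the pupa. They were selected on their measured levels from the 20644 genes listed. The level used here, called R, is the deposited TPM (exon reads per exon length, scaled to the same sum in each library) rescaled to a sum of 1000000 after ribosomal RNA and mitochondrial rows were left out. A protein-coding gene was taken when R was at least 20 in both L6 and prepupa, when R + 1 of each was at least 5 times that of the pupa, and when R + 1 of L6 and prepupa lay within 3-fold of each other. Of 18797 protein-coding genes, 1859 had an R of 20 or more in both L6 and prepupa and are called shared genes. The 86 genes were 4.63% of the shared genes, and 5.59% of the 1539 shared genes whose L6 and prepupa levels lay within 3-fold. These shares follow from the rule and nothing was read from them. For comparison, 1019 shared genes lay within 3-fold of each other in L6, prepupa and pupa, and are called kept genes.

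The glands came from L6 larvae, prepupae and pupae of FAW-SID1, a transgenic strain that carries green fluorescent protein and the Caenorhabditis elegans double-stranded RNA channel SID1 under IE1 promoters, with or without the hr5 enhancer, of baculovirus origin. All 3 groups carry these transgenes, and no group without them is compared here. Each stage is a single library, so no stage difference can be set against replicate error and no test was run. Ratios are given instead with 95% exact intervals, which cover counting error only, and reads are not independent molecules. How many animals were pooled and how old the prepupae and pupae were is not stated in the sources used here.

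Verson's glands are paired dermal glands of moths, each made of cells that secrete, store and conduct the product, and they release a secretion under the old cuticle around each molt. The glands grow through the larval instars and degenerate after pupation. A cell that exports much protein threads new chains into the endoplasmic reticulum (ER) through the Sec61 channel and folds them there with chaperones and disulfide isomerases. It draws ATP and building blocks from glycolysis, the pentose phosphate pathway, which also supplies NADPH, and the mitochondrial tricarboxylic acid (TCA) cycle.

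The libraries held 2610753 exon reads outside ribosomal and mitochondrial rows in L6, 15161624 in prepupal and 11716156 in pupal glands. The ribosomal and mitochondrial rows together took 87.8%, 0.307% and 37.1% of all exon reads. Each of the 86 genes had 38 to 6268 exon reads in L6, 155 to 31483 in prepupal and 8 to 3248 in pupal glands. No list of markers of the gland itself was available, so the tissue label was not checked against one. Among markers of other tissues, 9 muscle genes other than the myophilin gene described below summed to an R of 8607 in L6, 100.1 in prepupal and 396 in pupal glands, and ranged from 192 to 2535 in L6. The 7 fat body genes summed to 3284, 326 and 12192, with apolipophorin-3 alone at 10387 in the pupa, and genes of basic juvenile hormone-suppressible storage proteins were also highest in the pupa. Of the 7 genes, 4 were highest in the pupa and 3 had an R under 1 there. The 7 midgut genes summed to 22.4, 471 and 7.21, and the 1 silk gland gene was at 0, 0 and 12.1. Only 1 hemocyte gene was named, at 5.28, 17.3 and 3.11. The part of these tissues in the results below was not tested, and fewer cells of a type cannot be told apart from less RNA per cell.

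Together the 86 genes held 1.04% of R in L6, 1.74% in prepupal and 0.128% in pupal glands. Their median R was 53.7 in L6, 83.3 in prepupal and 5.61 in pupal glands, while the kept genes had medians of 66.0, 62.2 and 64.7. The median gene was 7.70 times lower in the pupa than in L6 and 12.3 times lower than in the prepupa, on R + 1. In log2 terms these medians were -2.94 and -3.62, against -0.33 and -0.45 over all shared genes. The separation from the remaining genes is the selection itself. In the pupa 57 of the 86 genes had an R under 10 and 4 were at 1 or less, so that "lost" describes a strong reduction and not absence. At least 10 times lower than both earlier stages were 23 genes, and at least 20 times lower were 5. Shared genes with longer exons were lower in the pupa as a whole, and 32 of the 86 genes still met the rule after a correction for exon length that is described further on.

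**Figure D1:**
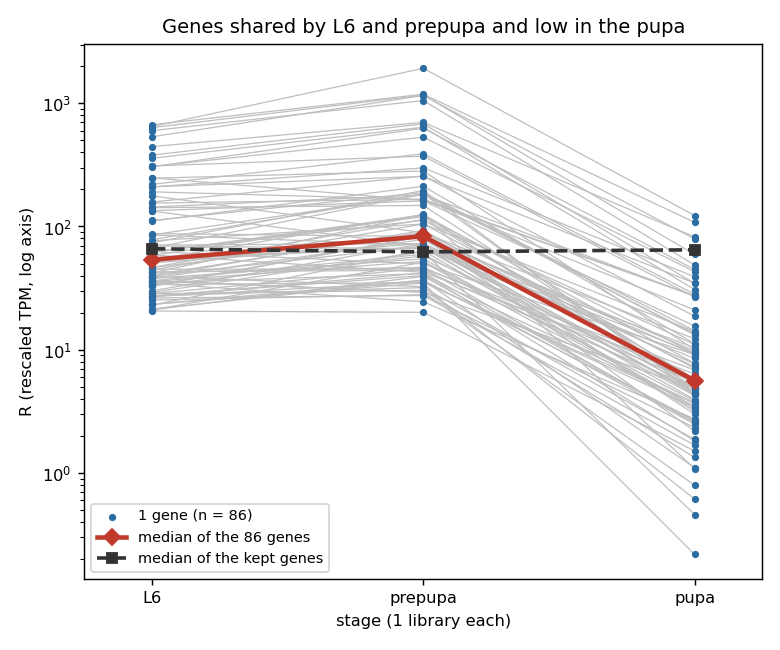
Level of each of the 86 genes (R, rescaled TPM, log axis) in the L6, prepupa and pupa libraries, 1 library per stage, with a line per gene, the median of the 86 genes (diamonds) and the median of the 1019 kept genes (squares, dashed). The median of the 86 genes stands at 53.7 in L6, 83.3 in prepupal and 5.61 in pupal glands, and the median of the kept genes stays between 62.2 and 66.0.

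**Figure D2:**
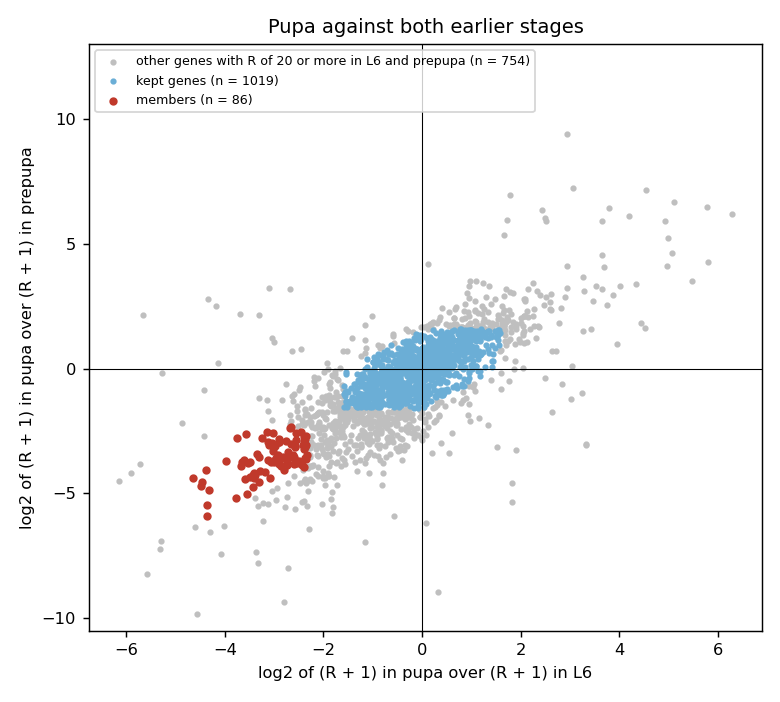
Log2 ratio of R + 1 in the pupa over the prepupa (vertical) against that over L6 (horizontal) for the 86 genes (red), the 1019 kept genes (blue) and the other shared genes (grey). The red points fill the lower left by the rule that chose them, and grey points as low as these differed by more than 3-fold between L6 and prepupa.

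Although the rule held both early stages within 3-fold, the 86 genes leaned to the prepupa. The prepupa was higher than L6 for 72 of the 86 genes (83.7%), against 457 of the 1019 kept genes (44.8%) and 1022 of the 1859 shared genes (55.0%). The median ratio of R + 1 in the prepupa over L6 was 1.56 for the 86 genes, 0.949 for the kept genes and 1.09 for the shared genes. For 38 of the 86 genes both stages lay within 1.5-fold, and for 21 genes the prepupa was at least 2 times L6. The counting interval of this ratio held 1 for 14 of the 86 genes. Over all shared genes this ratio also moved with exon length, with log2 medians of -0.42, 0.00, 0.47 and 0.85 in 4 classes of increasing length, against -0.03, 0.18, 0.81 and 0.59 for the members in them. After the correction for exon length given further on, the prepupa was higher than L6 for 33 of the 86 genes. The like count for the kept and shared genes after this step was not made. The lean itself uses levels that the rule used, and the part of exon length in it was not tested.

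Protein names were available for 41 of the 86 genes, of which 5 read only "uncharacterized protein", and 45 genes had no name in the tables used. Among the shared genes with a name, 5.5% were in the set. The names came from the study's tables of genes it had picked as high or as low in these glands, partly on these libraries, or as homologs of silkworm hemolymph proteins. The functions described cover only such genes. Genes for protein folding and translocation in the ER and for central carbon metabolism are described first.

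The most abundant members included 3 genes for chaperones and folding enzymes, all chosen for their level. Heat shock protein beta-1-like (LOC118263694), a member of the small heat shock proteins that hold unfolded proteins, had an R of 647 in L6, 1923 in prepupal and 123 in pupal glands. It was 5.28 times lower in the pupa than in L6 (95% counting interval 4.98 to 5.59) and 15.7 times lower than in the prepupa (15.0 to 16.4), and was the gene closest to the 3-fold limit between the early stages. Protein disulfide-isomerase-like (LOC118272650), which makes and rearranges disulfide bonds in the ER, had 669, 1184 and 108, and was 6.20 times lower in the pupa than in L6 (5.91 to 6.49). FK506-binding protein 2-like (LOC118277063), a prolyl isomerase of the ER in mammals, had 634, 1166 and 59.3, which put the pupa 10.7 times below L6 and 19.7 times below the prepupa (18.6 to 20.8). The isomerases act on chains that have just entered the ER, whereas small heat shock proteins are mostly found in the cytosol.

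The entry step itself was covered by a list of 6 named genes for ER translocation and signal cleavage, of which 5 were shared genes and 3 were members. The median of the 5 genes was -2.37 on the log2 scale for pupa over L6 and -3.60 for pupa over prepupa. Both genes named Sec61 subunit alpha, the pore of the translocation channel, were members. LOC118262163 had an R of 158 in L6, 256 in prepupal and 18.7 in pupal glands. LOC118262154 had 46.3, 88.2 and 5.29. The 2 genes thus kept about the same proportion to each other at each stage, and the pupa was 8.45 times (7.48 to 9.57) and 8.76 times (6.95 to 11.1) below L6. Their shares of uniquely mapped exon reads were 86.4% and 80.4%. They lie 37.8 kb apart on sequence NC_049712.1 of the files, at 15203860 to 15209103 and 15246922 to 15252212, with 6 protein-coding genes starting between the start of one and that of the other. TRAM 1 (LOC118275235), which helps nascent chains into the channel, had 78.2, 184 and 14.3. The remaining genes of the list were lower in the pupa too, without meeting the rule: the oligosaccharyltransferase gene LOC118267118, whose enzyme adds sugar chains to entering proteins, had 218, 399 and 46.7, and the signal peptidase gene LOC118268163 had 205, 449 and 101. On TPM as deposited 4 of the 5 shared genes were lower in the pupa than in both earlier stages.

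Of 12 named genes for the pyruvate dehydrogenase complex and the TCA cycle, 8 were shared genes, 5 were members and all 8 were lower in the pupa than in both earlier stages. Shared genes had to reach a minimum in L6 and prepupa but not in the pupa, which favours genes lower in the pupa. How many of all shared genes were lower in the pupa than in both was not counted, so such counts have no share to be set against. This limit holds for the other lists too. Of the 5 members, 1 still met the rule after the correction for exon length (mitochondrial malate dehydrogenase) and 3 with uniquely mapped reads alone (citrate synthase, dihydrolipoyl dehydrogenase and fumarate hydratase), and none met it under both. The median of the 8 genes was -2.80 for pupa over L6 and -3.76 for pupa over prepupa, against -0.33 and -0.45 for all shared genes. Pyruvate dehydrogenase E1 subunit alpha (LOC118271154), the entry of pyruvate into the cycle, had an R of 70.7 in L6, 72.6 in prepupal and 4.86 in pupal glands. Only 5.33% of its exon reads mapped uniquely, so its level depends on how the authors' mapping shared reads between like sequences. Dihydrolipoyl dehydrogenase (LOC118261980), the E3 subunit shared by the 2-oxoacid dehydrogenase complexes, had 134, 161 and 15.6. The pupa was 8.60 times below L6 (7.59 to 9.75) and 10.3 times below the prepupa (9.32 to 11.5). Citrate synthase (LOC118262833, sequence NC_049710.1, 11081147 to 11094721, plus strand), which condenses acetyl-CoA with oxaloacetate, had 112, 189 and 13.1, and the pupa was 8.51 times below L6 (7.56 to 9.59). Fumarate hydratase (LOC118267378), which makes malate, had 30.0, 72.6 and 4.34. Mitochondrial malate dehydrogenase (LOC118274626), which closes the cycle, had 248, 163 and 27.3, with L6 rather than the prepupa highest, and 49.8% of its exon reads mapped uniquely.

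The 3 shared TCA cycle genes outside the set were left out by the limit between L6 and prepupa, in 1 case also by the ratio to the pupa. Isocitrate dehydrogenase LOC118262464 had 80.7 in L6, 669 in prepupal and 12.6 in pupal glands. The second isocitrate dehydrogenase gene, LOC118267252, had 247, 797 and 39.9, and mitochondrial aconitate hydratase LOC118264042, which isomerizes citrate, had 38.9, 190 and 11.7. The 4 named genes that were not shared had an R under 3 in L6. Among them 3 malate dehydrogenase genes were highest in the pupa, with LOC118263507 at 2.56, 6.29 and 58.4, and the 2-oxoglutarate dehydrogenase gene LOC118267177 was highest in the prepupa at 0.735, 11.9 and 3.67.

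In the respiratory chain and ATP synthase list the picture differed. Of 16 named genes 7 were shared and 1 was a member, ATP synthase subunit alpha (LOC118265881), a part of the catalytic head of the enzyme. It had an R of 445 in L6, 700 in prepupal and 82.3 in pupal glands, which was 5.41 times below L6 (5.10 to 5.74) and 8.50 times below the prepupa (8.12 to 8.89). The other 6 shared genes were lower in the pupa by less. Among them a probable NADH dehydrogenase gene (LOC118273680) was 1.02 times below the prepupa, with a counting interval that held 1 (0.936 to 1.11). Cytochrome c oxidase subunit 5A (LOC118277736) had 801, 537 and 447, and the ATP synthase lipid-binding protein (LOC118269627) had 3239, 1295 and 885. The list's median was -1.64 for pupa over L6 and -0.93 for pupa over prepupa, and 3 of its shared genes were kept genes. A further 9 named genes of this list, such as cytochrome b-c1 complex subunit 8-like (LOC118263318) at 13.1, 12.8 and 271, were highest in the pupa. Under TMM scaling 5 rather than 7 shared genes of this list were lower in the pupa than in both earlier stages, and 4 on TPM as deposited, whereas under both the count stayed at 8 of 8 for the TCA cycle list. With the correction for exon length the lists did not differ in this, with 7 of 7 and 8 of 8. The part of exon length in the difference between the lists was not tested.

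Glycolysis and lactate metabolism had 9 named genes, 8 of them shared, 4 of them members and all 8 lower in the pupa than in both earlier stages. The list's medians were -2.57 for pupa over L6 and -2.30 for pupa over prepupa. Glucose-6-phosphate isomerase-like (LOC118277306), which turns glucose 6-phosphate into fructose 6-phosphate, had an R of 34.8 in L6, 41.5 in prepupal and 1.82 in pupal glands. It was 19.1 times lower in the pupa than in L6 (14.3 to 25.9) and 22.8 times lower than in the prepupa (17.5 to 30.1). L-lactate dehydrogenase-like (LOC118272480), which interconverts pyruvate and lactate, had 85.4, 70.7 and 4.49, and was 19.0 times lower than in L6 (15.6 to 23.3). Glycerol-3-phosphate dehydrogenase (LOC118268196), a link between glycolysis and lipid backbones or mitochondrial NADH transfer, had 26.3, 27.5 and 1.68, with 36 exon reads in the pupa. Phosphoglycerate kinase-like (LOC118262502), an ATP-forming step, had 62.6, 49.7 and 9.11 and lay just inside the limit of 5 times the pupa. The other shared genes of the list were lower in the pupa with smaller ratios, among them enolase-like (LOC118269470) at 145, 147 and 29.6 and triosephosphate isomerase (LOC118263360) at 287, 170 and 54.6. The named gene that was not shared, also enolase-like (LOC118267198), was highest in the pupa at 5.29, 17.3 and 56.9. Of its exon reads 0% mapped uniquely. Between the early stages the list was split. Glyceraldehyde-3-phosphate dehydrogenase (LOC118271716), at 1954, 581 and 349, phosphoglycerate mutase 1-like (LOC118274617), at 279, 148 and 67.3, triosephosphate isomerase, phosphoglycerate kinase and lactate dehydrogenase were lower in the prepupa than in L6, as the summed muscle markers were (100.1 in the prepupa against 8607 in L6), while enolase, glucose-6-phosphate isomerase and glycerol-3-phosphate dehydrogenase were not. The part of muscle in these values was not tested. Of the 4 members, 2 met the rule after the correction for exon length, lactate dehydrogenase and glycerol-3-phosphate dehydrogenase. With uniquely mapped reads alone 2 met it, lactate dehydrogenase and glucose-6-phosphate isomerase, and 1 met it under both. Of the reads on the glycerol-3-phosphate dehydrogenase gene, 74.5% in L6, 53.1% in prepupal and 81.7% in pupal glands lay on introns.

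All 4 named genes of the pentose phosphate pathway were shared genes, 2 were members and all 4 were lower in the pupa than in both earlier stages. The members were 6-phosphogluconate dehydrogenase (LOC118264560), an NADPH-forming enzyme of the oxidative branch, and transaldolase (LOC118263320), an enzyme of the branch that rearranges sugar phosphates. 6-phosphogluconate dehydrogenase had an R of 111 in L6, 212 in prepupal and 11.2 in pupal glands, which was 9.87 times below L6 (8.67 to 11.2) and 18.9 times below the prepupa (17.0 to 21.1). Transaldolase had 210, 299 and 39.0, and was 5.38 times lower than in L6 (4.90 to 5.90). Transketolase-like protein 2 (LOC118277790) had 73.8, 179 and 19.8, and ribose-5-phosphate isomerase-like (LOC118263912) had 53.9, 26.8 and 16.7, so both had smaller ratios to the pupa. The medians over the 4 genes were -2.12 for pupa over L6 and -3.01 for pupa over prepupa. With the correction for exon length 3 of the 4 genes remained lower in the pupa than in both earlier stages, and neither member met the rule.

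**Figure D3:**
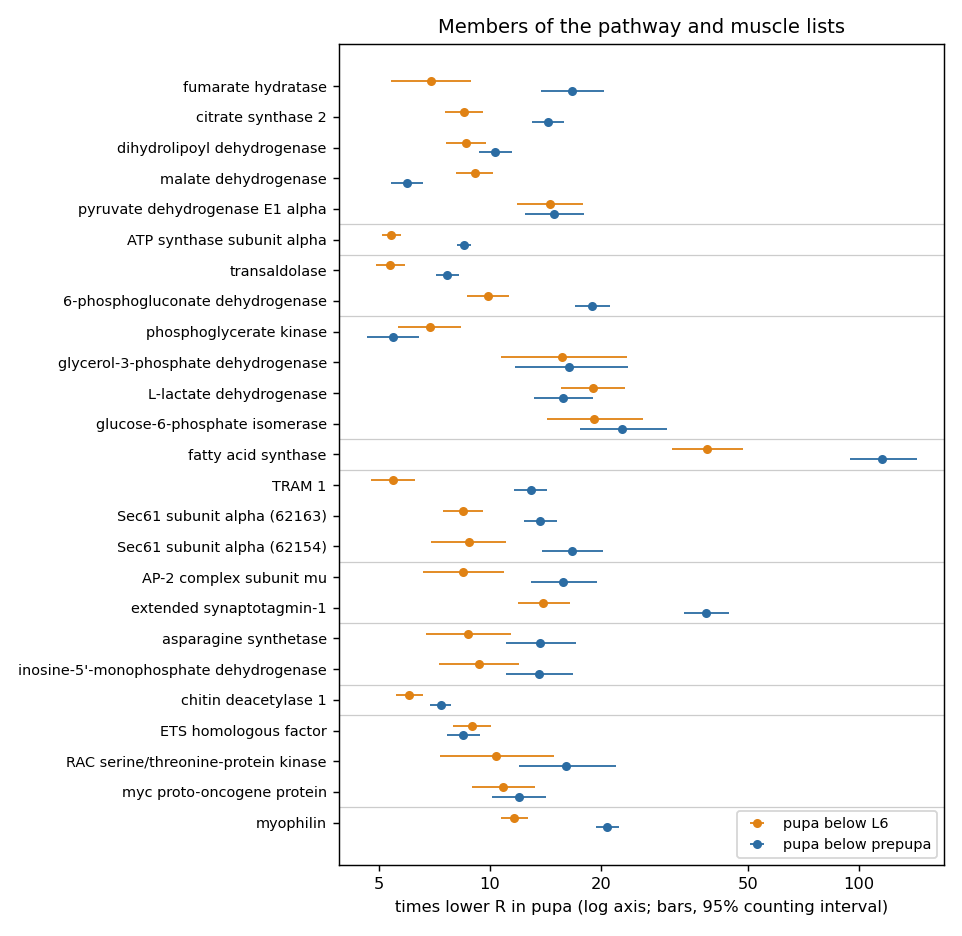
Times by which R was lower in the pupa than in L6 (orange) and than in the prepupa (blue), on a log axis, for each member found in a pathway or muscle list, with 95% counting intervals as bars and lines between lists. The values run from 5.38 for transaldolase and 5.41 for ATP synthase subunit alpha to 38.8 for fatty acid synthase against L6, and to 116 for fatty acid synthase against the prepupa.

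Fatty acid synthase-like (LOC118272899), the multidomain enzyme that builds palmitate from malonyl-CoA with NADPH, had the largest ratio to the prepupa among members with a descriptive name. It lies on sequence NC_049726.1 at 13387368 to 13397181 on the plus strand and has 41 exons. It had an R of 42.0 in L6, 125 in prepupal and 1.08 in pupal glands, from 715, 8926 and 93 exon reads. The pupa was 38.8 times below L6 (31.2 to 48.6) and 116 times below the prepupa (94.4 to 144). The fatty acid synthesis list had 16 named genes, 5 of them shared, and this was its 1 member. Of the other shared genes, an acyl-CoA Delta(11) desaturase-like gene (LOC118264952) had 103, 4061 and 14.9, an elongase gene (LOC118281679) had 23.7, 45.8 and 5.52, and the enoyl-CoA reductase gene LOC118272916 had 81.2, 110 and 99.6. Other genes named fatty acid synthase-like were not shared and were highest in the pupa. LOC118274609 had 0.302 in L6, 0.0844 in prepupal and 29.3 in pupal glands, and LOC118274634 had 0.354, 0.0121 and 13.03. The low pupal level thus holds for LOC118272899 and not for every gene of this name. Thus the genes of this list did not share a pattern.

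Most of the shared vesicle traffic genes were kept in the pupa. Of 33 named genes 21 were shared, 16 were kept, 2 were members and 7 were highest in the pupa. The list's median of -0.30 for pupa over L6 lay near the -0.33 of all shared genes. For pupa over prepupa it was -0.69, against -0.45. Some coat genes had an R under 20 in L6, so were not shared, and fell from prepupa to pupa. Coatomer subunit beta'-like (LOC118275640) had 97.1 and 1.79, coatomer subunit alpha-like LOC118270370 had 58.1 and 1.33 and LOC118270806 had 45.3 and 1.85. AP-1 complex subunit gamma-1-like (LOC118267054) had 69.3 and 3.44. Extended synaptotagmin-1-like (LOC118262409), a protein that tethers the ER to the plasma membrane and carries lipids between them, had an R of 66.7 in L6, 184 in prepupal and 4.78 in pupal glands. It was 14.0 times lower in the pupa than in L6 (11.9 to 16.4) and 38.6 times lower than in the prepupa (33.6 to 44.5). AP-2 complex subunit mu (LOC118268893), an adaptor of clathrin at the plasma membrane, had 21.1, 39.4 and 2.49. Among genes of the list outside the set, Rab-3 (LOC118281857), a GTPase of regulated secretion, was low in the pupa but exceeded the 3-fold limit between the early stages with 148 in L6, 47.3 in prepupal and 1.12 in pupal glands. Rab-8A-like (LOC118275344) was highest in the pupa at 245, 163 and 440.

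Among 12 named genes for nucleotide and amino acid synthesis, 6 were shared and 2 were members. Inosine-5'-monophosphate dehydrogenase-like (LOC118263464), the rate-limiting enzyme of guanine nucleotide synthesis, had an R of 35.8 in L6, 52.2 in prepupal and 3.84 in pupal glands. Asparagine synthetase (LOC118282360) had 23.3, 36.6 and 2.68. In contrast, the serine synthesis genes D-3-phosphoglycerate dehydrogenase-like (LOC118276367) at 144, 175 and 171 and phosphoserine aminotransferase (LOC118268504) at 135, 164 and 133 were kept genes.

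The cuticle and chitin list had 42 named genes, of which 6 were shared and 1 was a member, while 16 of the 42 were highest in the pupa. The member was chitin deacetylase 1-like (LOC118273685), an enzyme that trims acetyl groups from chitin in the cuticle. It had an R of 210 in L6, 255 in prepupal and 34.7 in pupal glands, and was 6.04 times lower than in L6 (5.55 to 6.57) and 7.36 times lower than in the prepupa (6.88 to 7.87). A second gene named chitin deacetylase 1 (LOC118273193) had 152, 287 and 41.4 and was not a member.

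Regulators were collected by words in their names, so that the 79 named genes also hold import receptors and other proteins that do not regulate transcription or signalling. Of these 24 were shared, 15 were kept and 3 were members. The transcription factor gene myc (LOC118272358), which promotes growth and ribosome production, had an R of 25.3 in L6, 27.9 in prepupal and 2.33 in pupal glands. RAC serine/threonine-protein kinase-like (LOC118267370), the Akt kinase of insulin signalling, had 27.1, 41.9 and 2.61, and was 10.4 times lower in the pupa than in L6 (7.32 to 14.9). ETS homologous factor-like (LOC118264061), of a family of transcription factors found in epithelia in mammals, had 87.6, 83.0 and 9.79, but 0.644% of its exon reads mapped uniquely. The other gene of this name, LOC118264002, had 24.1, 19.9 and 1.26 and fell just short of the minimum of 20 in the prepupa. For all 3 members the early stages differed by less than 1.6-fold, with ratios of prepupa over L6 of 1.10 for myc, 1.55 for the kinase and 0.947 for the ETS factor.

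**Figure D4:**
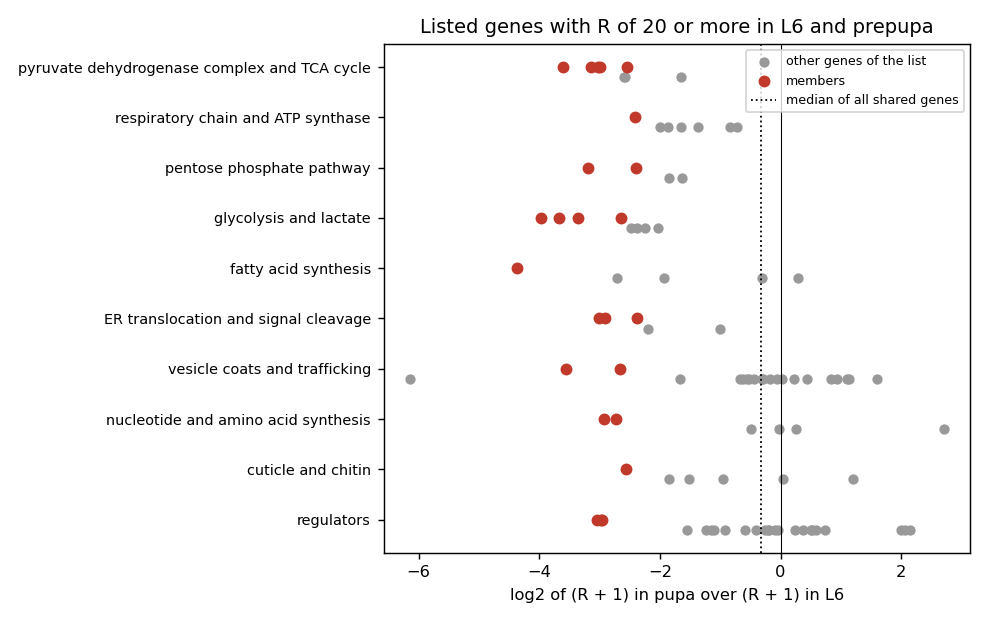
Log2 ratio of R + 1 in the pupa over L6 for the shared genes of each pathway list, with the members in red, the other genes in grey and the median of all shared genes (-0.33) as a dotted line. The points of the TCA cycle, glycolysis, pentose phosphate and ER translocation lists lie left of that line, while those of the vesicle and regulator lists lie on both sides of it.

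Myophilin-like (LOC118264164), of the calponin family and first described in muscle of a tapeworm, was the 1 member in a marker list of another tissue. It had an R of 358 in L6, 639 in prepupal and 30.8 in pupal glands, and was 11.6 times lower than in L6 (10.7 to 12.7) and 20.8 times lower than in the prepupa (19.3 to 22.3). In this it differed from the other muscle genes. Troponin I (LOC118263900) had 2535 in L6, 18.7 in prepupal and 73.0 in pupal glands, and muscle-type actin A2 (LOC118268744) had 192, 0.883 and 4.76. No fat body, midgut, hemocyte or silk gland marker was a member.

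Several further named members were among the most abundant or the most reduced. Serine protease 7-like (LOC118265362), whose namesake in Drosophila acts in melanization, had an R of 305 in L6, 627 in prepupal and 44.8 in pupal glands. Apoptosis-inducing factor 3-like (LOC118274687), a relative of the mitochondrial flavoprotein apoptosis-inducing factor, had nearly the same level in L6 and the prepupa, 142 and 148, and 5.49 in the pupa. The pupa was 25.9 times below L6 (21.7 to 31.1) and 27.0 times below the prepupa (22.9 to 32.0). Cytochrome P450 6B2-like (LOC118273800), of a family that oxidizes plant toxins and other foreign compounds, had 33.1, 83.3 and 2.18. Synaptic vesicle glycoprotein 2B-like (LOC118274390), of a transporter family, had 36.3, 29.3 and 0.793, and was 45.7 times lower in the pupa than in L6 (30.7 to 70.8) from 27 pupal reads. The 10 most reduced members included 6 genes without a name.

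Among those, LOC118274261 had the lowest pupal level of all, with 23.3 in L6, 34.7 in prepupal and 0.218 in pupal glands from 8 reads. Its ratios of 107 times below L6 (53.1 to 252) and 159 times below the prepupa (80.7 to 370) are therefore wide. LOC118278849 had 29.1, 62.8 and 0.459 from 10 pupal reads, and LOC118274285 had 39.2, 32.4 and 0.614 from 14. LOC118266866 was far better covered, with 246, 282 and 10.02 from 834 pupal reads, and was 24.6 times lower in the pupa than in L6 (22.8 to 26.5). LOC118281809 had 73.7, 196 and 4.49, and LOC118275158 had 21.4, 36.7 and 1.10. The functions of these genes are not given in the tables used.

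Abundant members without a descriptive name were LOC118272002 at 535, 1155 and 79.3, LOC118278624 at 380, 681 and 34.6, LOC118268182 at 308, 531 and 43.1, and LOC118273938, a gene of 34 exons, at 310, 372 and 26.7. LOC118272350 had 599, 1053 and 48.6, but 0.00388% of its exon reads mapped uniquely. Without a second source its level cannot be assigned to this gene rather than a copy.

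Other named members were chosen after their values were seen and have roles in metabolism or at the cell surface. Inorganic pyrophosphatase (LOC118282016), which splits the pyrophosphate released by biosynthesis, had 155 in L6, 166 in prepupal and 27.4 in pupal glands. The 2-oxoisovalerate dehydrogenase subunit beta (LOC118268616), of the complex that degrades branched-chain amino acids and uses the dihydrolipoyl dehydrogenase described above, had 53.8, 67.5 and 9.39. Protein windpipe-like (LOC118271280), a leucine-rich repeat membrane protein in Drosophila, had 61.8, 124 and 4.91, and was 12.6 times lower than in L6 (10.5 to 15.1). Venom serine carboxypeptidase-like (LOC118274807), a single-exon gene, had 51.4, 83.6 and 9.17.

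The rule was sharp only by convention, and genes just outside it behaved much like those just inside. At the minimum of 20, LOC118269478 lay inside with 20.6 in L6, 20.1 in prepupal and 1.51 in pupal glands, together with LOC118272587 and AP-2 complex subunit mu. Just outside were ETS homologous factor-like LOC118264002, LOC118272628 at 19.7, 37.1 and 0.350, and LOC118271071 at 18.8, 51.9 and 0.847. At the limit of 5 times the pupa, phosphoglycerate kinase-like had a ratio of 5.02, LOC118269489 of 5.03 and LOC118271897 of 5.12. Glucose dehydrogenase (LOC118265751) had 4.96, LOC118280838 had 4.95 and LOC118268792 had 4.94. At the 3-fold limit, heat shock protein beta-1-like, fatty acid synthase-like and extended synaptotagmin-1-like were the members with the widest gap between the early stages. The genes just past that limit were staphylococcal nuclease domain-containing protein 1-like (LOC118268879) at 44.8, 137 and 7.71, LOC118278294 at 71.8, 220 and 0.849, and Rab-3. Without the 3-fold limit 125 genes would have qualified, of which 35 had the prepupa and 4 had L6 more than 3 times above the other early stage.

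The members were spread over 31 sequences of the assembly, with at most 7 on one sequence and 5 on unplaced scaffolds. Besides the pair of Sec61 genes, 4 pairs lay within 100 kb of each other. These were LOC118268204 and LOC118268182, single-exon genes 20.2 kb apart that had 53.6% and 55.4% of exon reads uniquely mapped, ETS homologous factor-like LOC118264061 and LOC118264848 at 52.5 kb, cytochrome P450 6B2-like and LOC118274285 at 62.3 kb, and LOC118274212 and LOC118273938 at 69.6 kb. Each pair had from 1 to 6 protein-coding genes that started between the starts of its members. No gene of another biotype met the same limits, out of 28 such genes with an R of 20 or more in L6 and prepupa.

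Members were longer and had more exons than the kept genes, which the rule did not use. The median exon length was 1972 bases for members, 1214 for kept genes and 1436 for shared genes, and the median number of exons was 8, 4 and 5. The median gene length was 9449 bases, against 2576 for kept and 3234 for shared genes. Length also moved with the ratio between stages over all shared genes. The 553 shared genes of up to 1000 exon bases had a median log2 ratio of 0.21 for pupa over L6 and 0.64 for pupa over prepupa. The 436 genes up to 1500 bases had -0.12 and -0.16, the 516 genes up to 2500 bases had -0.69 and -1.19, and the 354 longer genes had -0.92 and -1.92. Members made up 3, 14, 43 and 26 of these classes (0.542%, 3.21%, 8.33% and 7.34%). In the longest class the median of all shared genes already stood 3.79 times below the prepupa. The members' own ratios within a class are bounded by the rule and nothing was read from them. In a step chosen after these values were seen, the prepupa and pupa levels were divided by the median ratio to L6 of genes of like exon length. The genes behind this median were protein-coding genes with a mean R of at least 20 over the 3 stages. They were not limited to the shared genes, so genes low in L6 could enter. After the step 48 genes met the rule, of which 32 were among the 86. All 86 were still lower in the pupa than in both earlier stages under this step, with medians of -2.53 for pupa over L6 and -2.31 for pupa over prepupa. Citrate synthase, dihydrolipoyl dehydrogenase, fumarate hydratase, pyruvate dehydrogenase E1 subunit alpha, transaldolase, protein disulfide-isomerase, TRAM 1, myc, ATP synthase subunit alpha and glucose-6-phosphate isomerase were among the 54 that no longer met it, while fatty acid synthase, both Sec61 genes, extended synaptotagmin-1, lactate dehydrogenase, apoptosis-inducing factor 3, myophilin and mitochondrial malate dehydrogenase still did. The part of length, or of RNA integrity that can act through it, in the remaining difference was not tested.

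**Figure D5:**
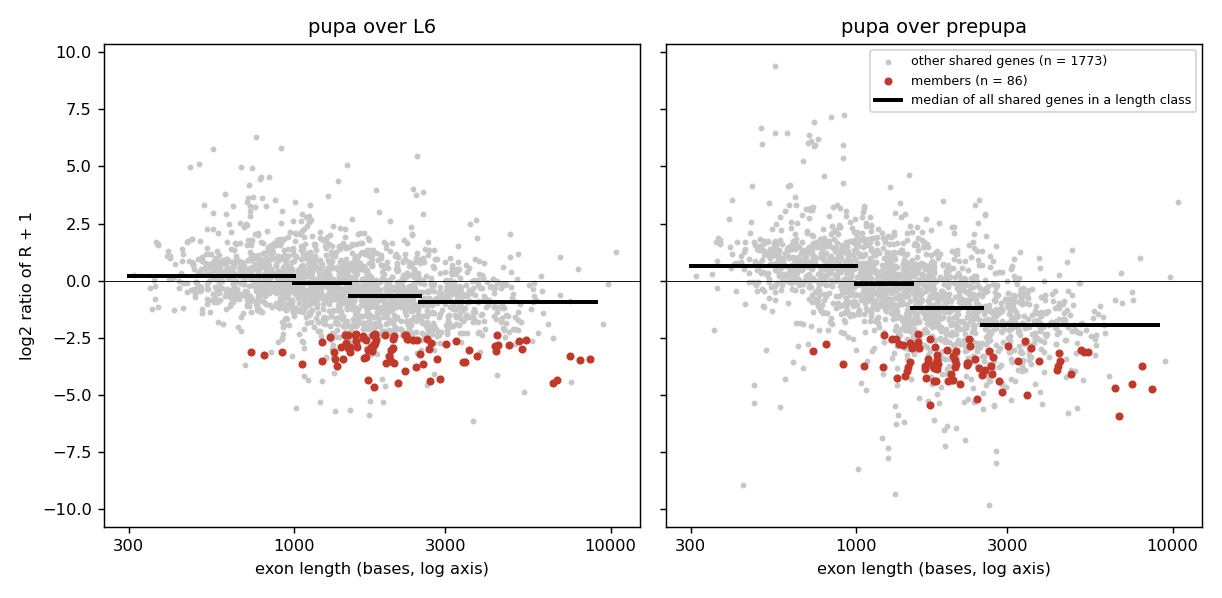
Log2 ratio of R + 1 in the pupa over L6 (left) and over the prepupa (right) against exon length in bases (log axis) for the 86 members (red) and the other shared genes (grey), with the median of all shared genes in each of 4 length classes as black bars. The bars step down from 0.21 to -0.92 on the left and from 0.64 to -1.92 on the right, and the members lie below them and mostly at lengths over 1500 bases.

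Intron reads did not enter the rule but come from the same libraries and genes, and are given as a description. They were 7.64% of the reads on member genes in L6, 5.95% in prepupal and 7.12% in pupal glands, against 2.09%, 1.96% and 1.13% for the kept genes. The medians per gene were 3.73%, 2.27% and 3.01% for members, against 1.04%, 0.663% and 0.561%. Members also had longer genes, with a median of 9449 bases against 2576 for kept genes, and the part of gene length in these shares was not tested. Scaled to 1000000 exon reads, intron reads of the members summed to 1928 in L6, 1724 in prepupal and 226 in pupal glands, while those of the kept genes summed to 6174, 3934 and 4194. On this scale fatty acid synthase-like had 182 intron reads in L6, 344 in prepupal and 5.80 in pupal glands. Heat shock protein beta-1-like had 42.9, 52.4 and 2.90, and extended synaptotagmin-1-like had 20.3, 17.3 and 0.683. L-lactate dehydrogenase-like had 11.1, 14.0 and 12.8 scaled intron reads, and LOC118271706 and LOC118281639 had more in the pupa than in the prepupa. Reads on introns can come from unspliced RNA, from overlapping genes or from DNA, and these were not told apart.

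At least 99% of exon reads mapped uniquely in 59 of the 86 members (68.6%), against 73.3% of kept genes. For 8 members (9.30%), against 9.13% of kept genes, fewer than 50% mapped uniquely. With uniquely mapped exon reads alone, 77 genes met the rule and 69 of them were among the 86. The 17 that dropped out included the ETS factor and pyruvate dehydrogenase E1 subunit alpha, with few uniquely mapped reads, mitochondrial malate dehydrogenase, and heat shock protein beta-1-like and phosphoglycerate kinase-like, which lay near the limit of 5 times the pupa.

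The size of the set depended on how the libraries were scaled against each other. On TPM as deposited, in which the ribosomal and mitochondrial rows lower every other gene of L6, 5 genes met the rule, of which 1 was among the 86. TMM scaling gave 53 genes, of which 50 were among the 86. The median of pupa over L6 moved from -0.29 to 0.02 over protein-coding genes above a low summed level. That level was applied anew under each scaling, so the genes behind the 2 medians can differ. Under every scaling tried, all 86 genes were lower in the pupa than in both L6 and prepupa, apart from LOC118272350 when only uniquely mapped reads were used. A scaling multiplies all genes of a library by the same factor, and the genes were chosen to be at least 5 times lower. The direction under other scalings thus follows largely from the rule, and nothing was read from it.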

How the data were processed

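Verson's glands of FAW-SID1 at L6, prepupa and pupa gave 1 library each, sequenced on the BGISEQ-500. The authors mapped the reads in CLC Genomics Workbench 9.5.9 and deposited, per gene, read counts on exons and introns, in total and uniquely mapped. The authors also deposited TPM and RPKM, which are exon reads per exon length on different library scales. The genome build and the treatment of reads with several matches are not stated there.

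R was computed from the deposited TPM without rRNA and mitochondrial rows. 1 gene is not reported here. The members and lists were chosen with earlier results of these data known. Named genes were every member in a list, the 10 highest in L6 and in the prepupa, the 10 with the lowest ratio of pupa to the mean of both, 3 genes on each side of each limit, and members within 100 kb of another. Protein names came from the study's tables, matched where needed by RefSeq accession (assembly AGI-APGP_CSIRO_Sfru_2.0). Names were held for 2295 of 18797 protein-coding genes.

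No test was made with 1 library per stage. Ratios of read counts carry exact Clopper-Pearson intervals at 95%. The rule was tested on simulated counts. Alternatives were other scalings (TMM of edgeR 4.0.16 and median of ratios), uniquely mapped reads, RPKM, other pseudocounts and other limits. The correction for exon length was added after seeing the data. Promoter motifs and protein sequences were not analysed here.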

Additional observations from a re-analysis of the deposited data

How the results depend on the processing

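The number of genes that met the rule was 5 on TPM as deposited, 53 with TMM scaling, 152 when libraries were scaled without the 10 highest protein-coding genes of each, 44 with a pseudocount of 5, 142 with a minimum R of 10, 44 with a minimum of 50, 178 with no minimum, 197 at 3 times the pupa, 23 at 10 times the pupa and 48 with the correction for exon length, which was chosen after seeing the data. It stayed within 1.5 times of 86 with uniquely mapped reads, RPKM, median-of-ratios scaling, a pseudocount of 0.1 and limits of 2-fold or 5-fold between L6 and prepupa. RPKM gave the same 86 genes as TPM, since both divide the same reads by exon length.

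Over the same 86 genes, the median log2 ratio of pupa over L6 was -1.41 on TPM as deposited, -2.55 with TMM, -2.65 with median of ratios, -2.35 with a pseudocount of 5 and -2.53 with the exon length correction. That of pupa over prepupa was -3.87 on TPM as deposited, -3.36 with TMM, -3.85 without the 10 highest genes, -2.90 with a pseudocount of 5 and -2.31 with the exon length correction. Other limits give other sets of genes, whose medians were -2.36 over L6 and -2.92 over prepupa for the 197 genes at 3 times the pupa, and -3.61 and -4.33 for the 23 genes at 10 times. Of single genes, only LOC118272350 changed direction, to 0.067 for pupa over L6 with uniquely mapped reads, of which it has almost none. The cause of the other shifts was not tested beyond what each setting changes by its construction.

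No paired analysis was possible because each stage has 1 library, and no stage has a library to leave out. The planned search for promoter motifs was not run. Depth limits L6 most, and genes with few pupal reads have wide intervals.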
